A study of Rattus norvegicus with 18 samples.

Results

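Prok2 encodes prokineticin 2, a small secreted peptide held together by disulphide bridges. It was taken by its symbol from the normalised signal table attached to the series, where it is 1 of 13136 gene symbols and is read by 1 probe set (10864433) of 17017. The table places its transcript on the minus strand of chromosome 4 of the rat assembly Rnor_5.0, from base 196648794 to base 196662391. Prok2 was chosen by its own log2 signal, which was already known to be higher after glucose in these data, so its glucose differences are a description and carry no test. The comparisons between vitamin D pretreatments were tested.

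The samples were INS1E cells, a rat insulinoma line that releases insulin, measured on 18 Affymetrix Rat Gene arrays, 1 per sample, from 150 ng of total RNA each. There were 6 groups of 3, and no label states whether the 3 were separate cultures. The p-values therefore cover the spread between these samples alone, which may be technical. All cells were grown at 11 mM glucose. For 72 h they then received 10 nM calcidiol (25-hydroxyvitamin D), the circulating form of vitamin D, or 10 nM calcitriol (1,25-dihydroxyvitamin D), the hormonally active form, or standard supplements alone. After 60 min in Krebs-Ringer buffer without glucose, cells of each pretreatment were kept without glucose or stimulated with it at 22 mM for 60 min. The groups called glucose, calcidiol with glucose and calcitriol with glucose are the stimulated ones, and control, calcidiol and calcitriol are the unstimulated ones. INS1E is a tumour line, a limit that every group shares.

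Prokineticins were named for their ability to contract gut smooth muscle. They signal through the receptors encoded by Prokr1 and Prokr2, which are coupled to G proteins, chiefly to Gq, the route that releases calcium from internal stores. In rodents prokineticin 2 is an output signal of the circadian clock in the suprachiasmatic nucleus and guides cells to the olfactory bulb, and in inflamed tissue it is made by neutrophils and macrophages.

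The start of Prok2 carries short sequences known as binding sites of transcription factors. The E-box, AP-1 site and TATA box found there are shown in place, and a cAMP response element half-site is given by its position. A RefSeq window of the assembly GRCr8, from 250 bases before to 50 after the annotated start, was searched on both strands for 6 motifs. Each line gives 30 bases 5′ to 3′ on the coding strand of its gene, and capitals mark the motif: CACGTG, an E-box bound by clock proteins and by other basic helix-loop-helix factors, TGANTCA, the AP-1 site bound by Fos and Jun proteins, and TATAA, the core of a TATA box.
Prok2 E-box at -120, chr4:133918036-133918065, minus strand: tggggcgcgtggCACGTGcgcgtgtgcgcg
Prok2 AP-1 site at -52, chr4:133917967-133917996, minus strand: gctgcctggcgTGAGTCAccgcggggctcg
Prok2 TATA box at -29, chr4:133917945-133917974, minus strand: ggggctcgccttTATAAccgccgccaggct
Pfkfb3 E-box at -42, chr17:71944879-71944908, plus strand: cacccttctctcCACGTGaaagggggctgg
Ifi30 E-box at -20, chr16:18709538-18709567, plus strand: atccaaaagcctCACGTGaccggacatact

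Positions count the first motif base from the annotated start, negative before it. The TATAA letters of Prok2 also read on the other strand, at -30, where they overlap those shown. Among 33469 RefSeq windows of 300 bases, 6.42% hold CACGTG, 7.33% hold TGANTCA and 26.2% hold TATAA, so each motif alone is common. TGACG, the cAMP response element's half-site, stood at -199 of Prok2 on the opposite strand and is held by 21.2% of windows. The full cAMP response element TGACGTCA, in 1.83% of windows, and the vitamin D response element, searched as a direct repeat with 3 bases between and held by 0.0239%, had no match in the Prok2 window. Pfkfb3 and Ifi30 are shown as the holders of CACGTG among the 8 genes whose signal ran most like that of Prok2, described below. Of those 8, 2 hold CACGTG, 2 hold TGACG, 0 hold TGANTCA, 0 hold the full cAMP response element and 1 holds TATAA. A match of letters is a description and does not show that a factor binds there.

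Within groups the array numbered 3 often departed from the others, as in several groups for Txnip, Pfkfb3, Prok2 and Prokr2, whose values are given below. Nr4a1, described below, had log2 signals of 6.50 on control 3, 8.95 on calcidiol 3 and 9.33 on calcitriol 3. With glucose it was 9.84 without vitamin D, 8.67 after calcidiol and 9.63 after calcitriol on the arrays numbered 3. All labels were kept as deposited, and whether those of the arrays numbered 3 are right was not tested. Every contrast over 18 arrays rests on these labels. Results are therefore given with and without these 6 arrays. The median log2 signals of the arrays ran from 7.52 to 7.63. Precision is limited by how few arrays there are. Beta-cell genes were high throughout, with Ins1 between 12.78 and 12.98 and the glucose transporter gene Slc2a2 between 12.03 and 12.29. Of 15 beta-cell markers 13 were measured and 12 tested. Of the alpha-cell markers, Gcg, the glucagon gene, had a high signal of 10.20 to 12.16, while Irx1 lay between 4.57 and 5.00. Delta and pancreatic polypeptide cell genes were low, Sst at 5.01 to 5.51 and Ppy at 5.19 to 5.72. The acinar genes measured, Cela1 and Ctrb1, were below the filter that left out the lowest 25% of mean signals, as were 3 of the 4 fibroblast markers measured. The duct gene Krt7 lay between 9.49 and 10.88, and 0 of 5 endothelial markers were measured.

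Prok2 was high on stimulated arrays numbered 1 and 2 and low on unstimulated ones. On the control arrays 1, 2 and 3 its log2 signal was 9.52, 9.51 and 9.57, the tightest of the 6 groups. On the glucose arrays it was 11.92, 11.62 and 9.18, so the array labelled glucose 3 lay below every control array. On the calcidiol arrays it was 9.53, 10.10 and 8.76. With calcidiol and glucose it was 11.82, 11.77 and 9.02, and again the array numbered 3 lay at the unstimulated level. On the calcitriol arrays it was 9.32, 9.55 and 10.69, and here the array numbered 3, unstimulated by its label, lay above the other two. With calcitriol and glucose it was 12.10, 11.65 and 11.26, the group in which all 3 arrays were high. In RNA from whole wells, fewer cells that express a gene and less of its RNA per cell cannot be told apart.

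**Figure D1:**
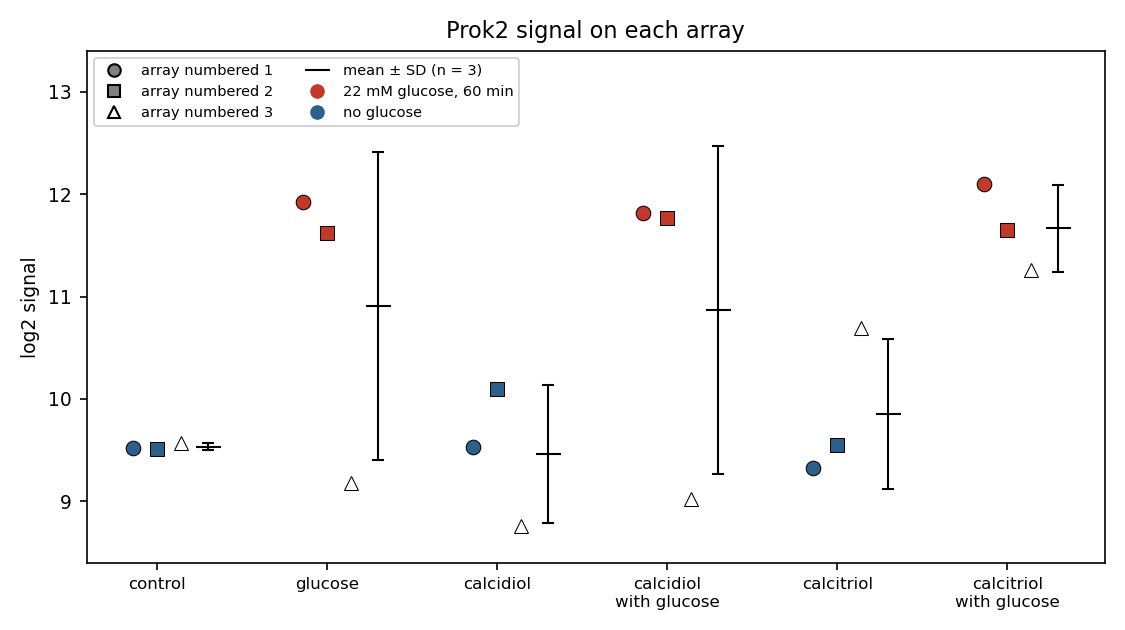
Prok2 log2 signal (vertical axis) on each of the 18 arrays, by group. Circles, squares and triangles are arrays numbered 1, 2 and 3, red and blue mark stimulated and unstimulated arrays, open triangles keep the arrays numbered 3 apart, and bars are the mean ± SD of 3 arrays. The red circles and squares lie between 11.62 and 12.10 and the blue ones between 9.32 and 10.10, while the triangles run from 8.76 to 11.26.

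By group mean the order was calcitriol with glucose at 11.67 ± 0.42, glucose at 10.91 ± 1.50, calcidiol with glucose at 10.87 ± 1.60, calcitriol at 9.85 ± 0.73, control at 9.53 ± 0.03 and calcidiol at 9.46 ± 0.67 (log2 signal, SD, n = 3). No 2 neighbours in that order differed beyond their spread, since the ranges overlapped in all 5 pairs. The 3 stimulated groups nevertheless held the 3 highest means. The SD of Prok2 within groups, pooled over the 6 groups, was 1.00, against a median of 0.11 over the 9852 genes tested. It stood at the 99.9th percentile of those genes. Without the arrays numbered 3 it was 0.24.

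Over all 18 arrays the stimulated minus unstimulated difference of Prok2 was 1.37 in log2 signal without vitamin D, 1.41 after calcidiol and 1.81 after calcitriol, and 1.53 averaged over the 3 pretreatments. On the 12 arrays numbered 1 and 2 the same differences were 2.25, 1.98, 2.44 and 2.22, the last a 4.67-fold higher signal. Limma called 104 genes (1.06%), 133 (1.35%) and 186 (1.89%) in the contrasts of the 3 pretreatments there, in the order none, calcidiol and calcitriol, and 0 (0%) in each over 18 arrays, where 599, 459 and 972 had an unadjusted p under 0.05. There the 6 stimulated arrays averaged 11.81 ± 0.18 and the 6 unstimulated ones 9.59 ± 0.26 (SD, n = 6), and the ranges did not overlap. Of the 9852 genes, 301 (3.06%) were likewise higher on every stimulated array numbered 1 or 2, and over all 18 arrays 2 were (0.0203%), Prok2 not among them. Prok2 was chosen for this contrast, so nothing is read from those shares.

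Taken by array number, the stimulated signal of Prok2 was 5.28-fold that of the control on arrays numbered 1, 4.32-fold on those numbered 2 and 0.761-fold on those numbered 3. After calcidiol it was 4.88-fold, 3.19-fold and 1.20-fold in the same order. After calcitriol it was 6.85-fold, 4.29-fold and 1.48-fold. In each pretreatment the pair numbered 3 thus gave the smallest ratio, and without vitamin D it ran the other way.

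The vitamin D comparisons asked whether either form altered Prok2 in unstimulated or stimulated cells, and none passed in any of the 8 contrasts by limma with Benjamini-Hochberg adjustment over 9852 genes. Over 18 arrays, Prok2 after calcitriol differed from control by 0.32 in log2 signal (SE 0.72, 95% interval -1.20 to 1.84, limma adjusted p = 1.00). After calcidiol it differed from control by -0.07 (95% interval -1.59 to 1.45, limma adjusted p = 1.00). In stimulated cells the calcitriol difference was 0.76 (95% interval -0.76 to 2.28) and the calcidiol difference -0.04 (95% interval -1.56 to 1.49), each with a limma adjusted p = 1.00. Limma called 0 of 9852 genes (0%) in each of these 4 contrasts, while 77, 238, 38 and 259 genes had an unadjusted p under 0.05, in the order calcitriol, calcidiol, calcitriol with glucose and calcidiol with glucose. As folds the 95% intervals ran from 0.43 to 3.58, 0.33 to 2.73, 0.59 to 4.86 and 0.34 to 2.80, in the same order. Changes of Prok2 within them are not excluded.

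Calcitriol and calcidiol differ by the hydroxyl group at carbon 1, which calcitriol carries and calcidiol lacks, and were given at the same dose for the same time. That pair was compared in both glucose states. Calcitriol minus calcidiol was 0.39 for Prok2 in unstimulated cells (95% interval -1.13 to 1.91, limma adjusted p = 1.00) and 0.80 in stimulated cells (95% interval -0.73 to 2.32, limma adjusted p = 0.999). Limma called 0 genes (0%) in each, with 96 and 309 at an unadjusted p under 0.05. A p above the threshold does not show that the forms act alike. The interaction, which asks whether the glucose difference depended on the pretreatment, was 0.44 for calcitriol (95% interval -1.71 to 2.59) and 0.04 for calcidiol (95% interval -2.11 to 2.19), again with 0 genes called (0%) and with 66 and 32 at an unadjusted p under 0.05.

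Without the arrays numbered 3 the intervals for Prok2 were narrower and the differences small. In unstimulated cells calcitriol minus control was -0.08 (95% interval -0.50 to 0.34), calcidiol minus control 0.30 (95% interval -0.12 to 0.72) and calcitriol minus calcidiol -0.38 (95% interval -0.80 to 0.04). Each of these 3 had the opposite sign to its value over 18 arrays. In stimulated cells the same contrasts gave 0.10 (95% interval -0.32 to 0.52), 0.02 (95% interval -0.39 to 0.44) and 0.08 (95% interval -0.34 to 0.50). The interactions were 0.18 (95% interval -0.41 to 0.77) for calcitriol and -0.27 (95% interval -0.87 to 0.32) for calcidiol. The smallest limma adjusted p of Prok2 among the 8 contrasts was 0.995, and limma called at most 2 genes (0.0203%) in any of them.

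**Figure D2:**
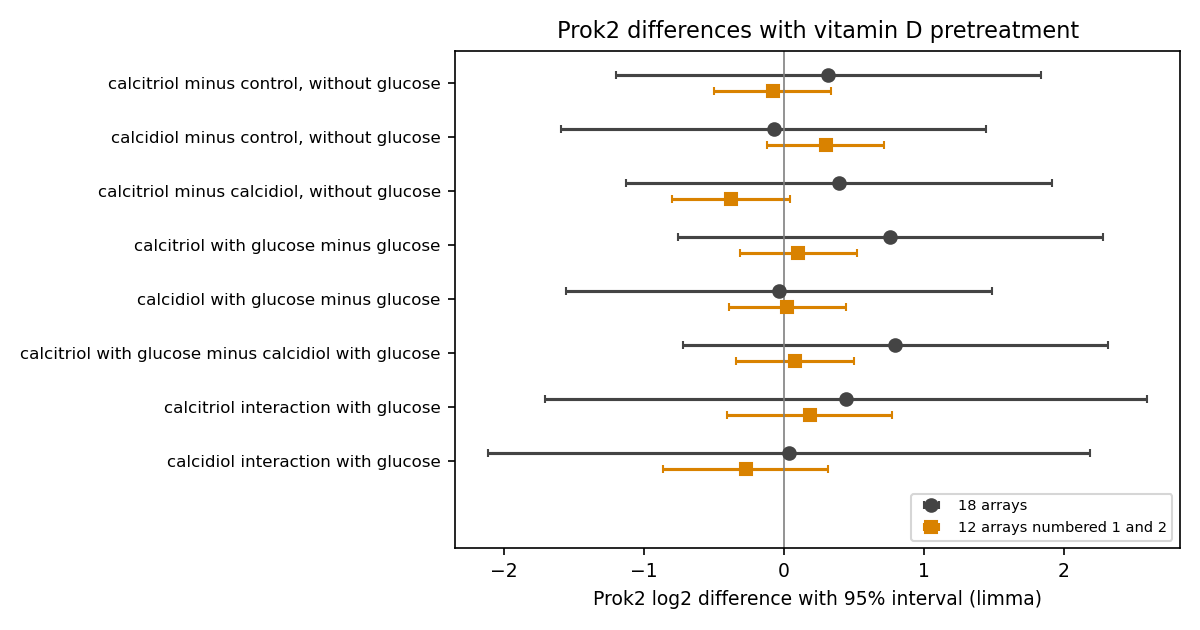
Prok2 differences in log2 signal (horizontal axis) for the 8 vitamin D contrasts, with 95% intervals from limma. Grey circles are from 18 arrays and orange squares from the 12 arrays numbered 1 and 2. Every interval includes 0, and the interactions over 18 arrays have the widest, such as -2.11 to 2.19 for calcidiol.

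Genes with a pattern most like that of Prok2 were found by Pearson correlation over the 18 arrays among 9169 genes, and 75 had r above 0.9. The arrays share their glucose states and the split by number, so the values are a description. Pfkfb3, which encodes an enzyme that raises the glycolytic activator fructose-2,6-bisphosphate, was highest with r = 0.985. It was followed by the stress-responsive kinase gene Plk3 (0.979), Lcat, encoding the enzyme that esterifies plasma cholesterol (0.977), and the lysosomal thiol reductase gene Ifi30 (0.976). The chemokine gene Cxcl16 (0.975), the pro-apoptotic Bcl2l11 (0.973), Gmip (0.972) and the chondroitin sulphotransferase gene Chst12 (0.968) completed the first 8. Ranked by Spearman's coefficient 3 of these 8 stayed among the first 8, and over the 12 arrays numbered 1 and 2 there were 2.

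With each group's mean removed, which leaves only how arrays of one group differ, Pfkfb3 was still first at 0.986. Lcat (0.975), Plk3 (0.967), Gmip and Cxcl16 (both 0.963) came next. The lowest correlations over 18 arrays belonged to Klhl9 at -0.946, Dcaf5 at -0.942, the RNA 3′-processing gene Cstf2t at -0.931 and Zbtb33, encoding the repressor Kaiso, at -0.908. Their signals moved over small ranges, such as 9.83 to 10.24 for Klhl9.

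Pfkfb3 shows the likeness array by array. On arrays numbered 1 and 2 its log2 signal was 8.42 to 8.58 when unstimulated and 9.56 to 9.85 when stimulated, with no overlap. Of 9852 genes, 301 (3.06%) were likewise higher on every stimulated array there. Pfkfb3 was picked for its likeness to Prok2, so nothing is read from its separation. On the arrays numbered 3 Pfkfb3 was 8.57 for control, 8.12 for glucose, 7.99 for calcidiol and 7.98 for calcidiol with glucose. It was 8.97 for calcitriol and 9.17 for calcitriol with glucose. As for Prok2, the stimulated arrays of the first 2 pretreatments were not raised and both calcitriol arrays were above the control.

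Txnip, a gene of a thioredoxin inhibitor whose transcription rises with glucose metabolism, also ran with Prok2, at r = 0.942 over 18 arrays and 0.906 with group means removed. On the arrays numbered 3 both calcitriol arrays had Txnip at 12.11 and 12.28, the level of stimulated arrays numbered 1 and 2, and the other 4 lay between 9.88 and 10.44. Nr4a1, an orphan nuclear receptor gene induced by calcium and cAMP signals, behaved otherwise there. Its correlation with Prok2 was 0.970 over the 12 arrays numbered 1 and 2, but 0.648 over 18 and 0.204 with group means removed.

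On the array labelled glucose 3, Nr4a1 was 9.84 against 6.50 on control 3, a difference of 3.34, where Prok2 differed by -0.39. On calcidiol 3 and calcidiol with glucose 3, Nr4a1 was 8.95 and 8.67, above the 6.18 to 6.85 of the unstimulated arrays numbered 1 and 2, while Prok2 was at its lowest, 8.76 and 9.02. On calcitriol 3 both genes were above their unstimulated range, Nr4a1 at 9.33 and Prok2 at 10.69. Prok2 and Nr4a1 therefore parted on 3 of the 6 arrays numbered 3. Per1 lay between, with r of 0.785 over 18 arrays and 0.971 over 12.

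**Figure D3:**
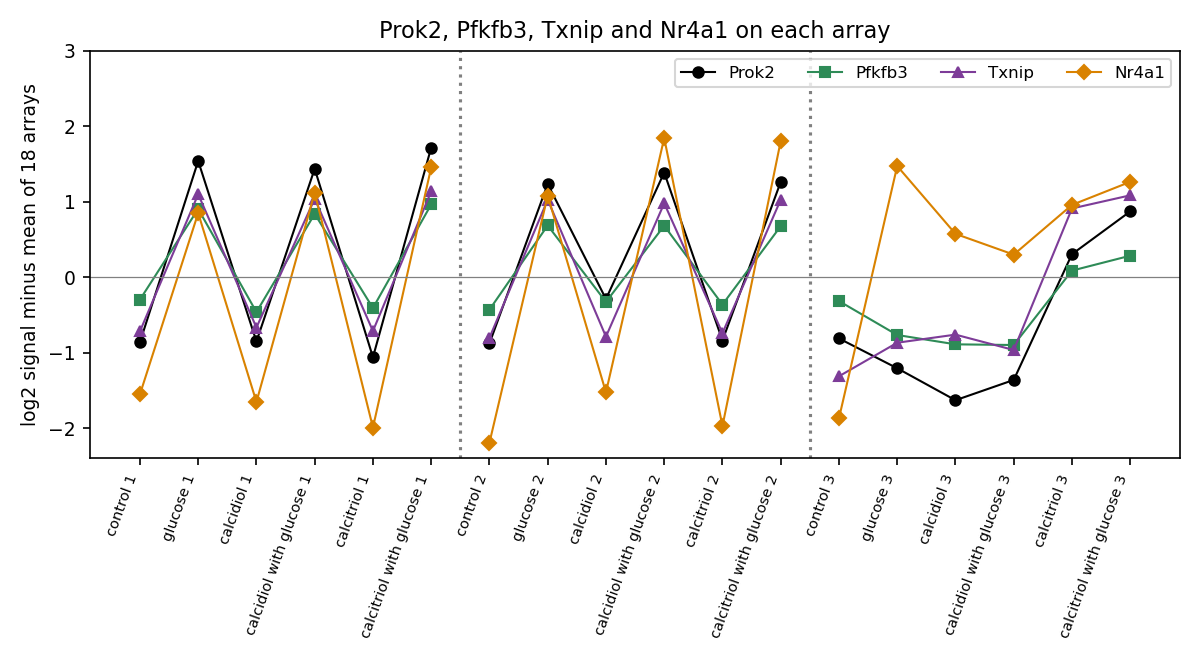
Log2 signal of Prok2, Pfkfb3, Txnip and Nr4a1 minus each gene's mean over 18 arrays (vertical axis), array by array, with dotted lines between the arrays numbered 1, 2 and 3. All 4 genes rise and fall with glucose on arrays numbered 1 and 2, and on the array labelled glucose 3 Nr4a1, at 9.84 in log2 signal, is high where the others are low.

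Of the 4 prokineticin ligand and receptor genes, 3 were measured, and Prokr1 was not analysed here. Prok1, the other ligand gene, had a log2 signal of 4.68 to 5.34 over all 18 arrays, below the filter. Its stimulated and unstimulated means were 5.01 and 4.85.

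Prokr2, the receptor gene measured, was low on most arrays and high on some of those given vitamin D, in same-numbered pairs. It was 5.07, 5.12 and 5.04 on the control arrays 1, 2 and 3, and 4.77, 5.10 and 4.93 on the glucose arrays. On the calcidiol arrays it was 5.03, 5.02 and 9.85, and with glucose 5.09, 5.06 and 9.87, so the array numbered 3 alone was high. On the calcitriol arrays it was 8.44, 6.90 and 4.74, and with glucose 8.23, 6.90 and 5.09, so here the array numbered 3 alone was low. In all 9 same-numbered pairs the stimulated and unstimulated values lay within 0.35 of each other, and Prokr2 did not share the glucose pattern of Prok2.

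Prokr2 lay below the filter, so its tests come from the fit of all 13136 genes with no filter. Over 18 arrays calcitriol minus control was 1.62 (95% interval -1.25 to 4.49, limma adjusted p = 1.00) and calcidiol minus control 1.55 (95% interval -1.32 to 4.43). In stimulated cells the values were 1.81 (95% interval -1.07 to 4.68) and 1.73 (95% interval -1.14 to 4.61). That fit called 0 genes (0%) in all 4 contrasts, and 111, 284, 120 and 364 had an unadjusted p under 0.05, in the same order. Without the arrays numbered 3, calcitriol minus control was 2.58 (95% interval 1.56 to 3.59, limma adjusted p = 0.311) and 2.63 in stimulated cells (95% interval 1.62 to 3.64, limma adjusted p = 0.263), neither of which passed. The calcidiol differences were then -0.07 (95% interval -1.09 to 0.94) and 0.14 (95% interval -0.88 to 1.15). That fit called 4 genes (0.0305%) in each calcitriol contrast and 0 (0%) in each calcidiol contrast.

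**Figure D4:**
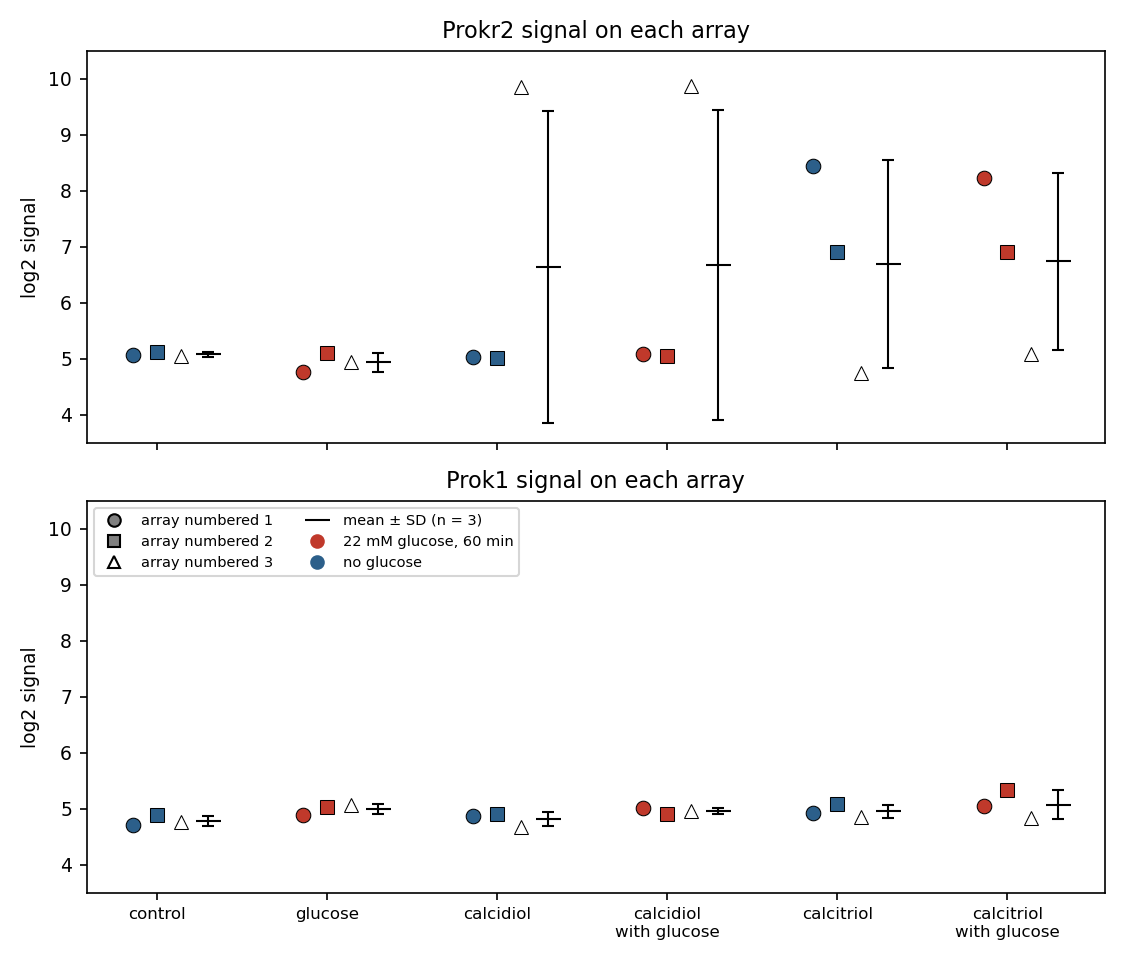
Log2 signal (vertical axes) of Prokr2, above, and Prok1, below, on each array, drawn as for Prok2, with bars for the mean ± SD of 3 arrays. The calcidiol triangles of Prokr2 stand near 9.85, its calcitriol circles at 8.44 and 8.23 and its calcitriol triangles at 4.74 and 5.09, while Prok1 stays between 4.68 and 5.34.

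The genes around Prok2 were read from the stimulated minus unstimulated contrast averaged over pretreatments. Limma called 332 of 9852 genes (3.37%), 138 higher (1.4%) and 194 lower (1.97%). With quantile normalisation the split was 200 higher and 132 lower, and with median centring 200 and 120. With the array number as a block 941 passed, 290 higher and 651 lower, and on the 12 arrays numbered 1 and 2 979 did (9.94%), 370 higher (3.76%) and 609 lower (6.18%). The median difference of all tested genes was -0.03 over 18 arrays and -0.04 over 12.

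Among genes of Gq signalling, the route of the prokineticin receptors, 17 of 22 were tested, and 1 passed as higher and 0 as lower, with a median difference of -0.03. Over all 9852 genes 1.4% passed as higher and 1.97% as lower, so 1 of 17 is not read as a result. Rgs16, which encodes a protein that shortens G-protein signals, was 10.49 when stimulated and 9.99 when not, a rise of 0.50 (SE 0.13, limma adjusted p = 0.0479), but it passed in only 3 of the 18 fits that each left out 1 array. Rgs2, a related gene, differed by 0.65 (SE 0.18, limma adjusted p = 0.0608), and the receptor kinase gene Grk5 by -0.18 (limma adjusted p = 0.0876). With the array number as a block 2 passed as higher, Rgs16 and Rgs2, and Grk5 as lower. That block fit called 290 of all 9852 genes as higher and 651 as lower. On the 12 arrays numbered 1 and 2 the 2 Rgs genes rose, Rgs16 by 0.70 and Rgs2 by 0.68 (limma adjusted p = 0.00901 for Rgs2). There 3.76% of all genes passed as higher. The Gq subunit genes Gnaq and Gna11 differed by -0.03 and -0.01 and did not pass.

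Of 21 circadian clock genes 16 were tested, of which 4 passed as higher and 0 as lower over 18 arrays. Among all 9852 genes the shares were 1.4% higher and 1.97% lower. Per1, a light- and cAMP-induced repressor of the clock, rose by 0.84 (SE 0.11, limma adjusted p = 0.0094) and passed in all 18 fits that each left out 1 array. Bhlhe41 and Bhlhe40, which encode repressors that bind the E-box CACGTG, rose by 0.92 and 0.75 (limma adjusted p = 0.0311 and 0.0214), and the repressor gene Nfil3 by 0.54 (limma adjusted p = 0.024). Bhlhe41 passed in 6, Bhlhe40 in 11 and Nfil3 in 10 of the 18 fits that each left out 1 array. The genes of the activators, Clock and Arntl, differed by -0.05 and 0.04 and did not pass, and the list's median was -0.00 against -0.03 for all genes. Without the arrays numbered 3, and with the array number as a block, 5 passed, Cry2 in addition (0.41 without the arrays numbered 3, limma adjusted p = 0.0164). Without those arrays 3.76% of all genes passed as higher, and with the block 290 of 9852 did.

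Among genes that answer calcium and cAMP through the factor CREB, 15 of 20 were tested, and 9 passed as higher and 0 as lower. Of all 9852 genes, 1.4% passed as higher and 1.97% as lower. The list's median was 0.84 against -0.03 for all genes tested. The salt-inducible kinase gene Sik1 rose by 1.42 (SE 0.21, limma adjusted p = 0.0094), Nr4a1 by 2.49 (SE 0.39, limma adjusted p = 0.0129) and Nr4a2 by 1.44 (limma adjusted p = 0.0129). All 3 passed in every fit that left out 1 array. With the array number as a block 13 passed as higher, and on the 12 arrays numbered 1 and 2 there were 12, with a median of 1.02. On those 12 arrays 3.76% of all genes passed as higher, and with the block 290 of 9852 did. The difference on those 12 arrays was 2.22 for Prok2, 3.17 for Nr4a1 and 1.85 for Sik1. Prok2 is not on this list and was chosen for its glucose difference, so nothing is read from its place beside them.

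Other secreted peptides were read in the same contrast. Of 58 peptide hormone, neuropeptide and granin genes 33 were measured and 17 tested, and 0 passed by limma in either direction, over 18 arrays, over 12 arrays or with the array number as a block, while 1, 1 and 2 had an unadjusted p under 0.05. Over all 9852 genes 1876, 2442 and 2676 had one, in the same order. With 3.37% of all genes called over 18 arrays, a count of 0 among 17 is near the background, so nothing is read from it about the list. Their median difference was 0.03. Those with the smallest adjusted p were Pthlh, encoding a relative of parathyroid hormone, at 0.13 (limma adjusted p = 0.227), the granin gene Scg3 at 0.08 (limma adjusted p = 0.332), Adm, encoding the vasodilator adrenomedullin, at 0.41 (SE 0.23, limma adjusted p = 0.355) and Edn3, encoding endothelin 3, at -0.10 (limma adjusted p = 0.412). The insulin genes Ins1 and Ins2 each differed by 0.02, and Gcg by 0.03.

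**Figure D5:**
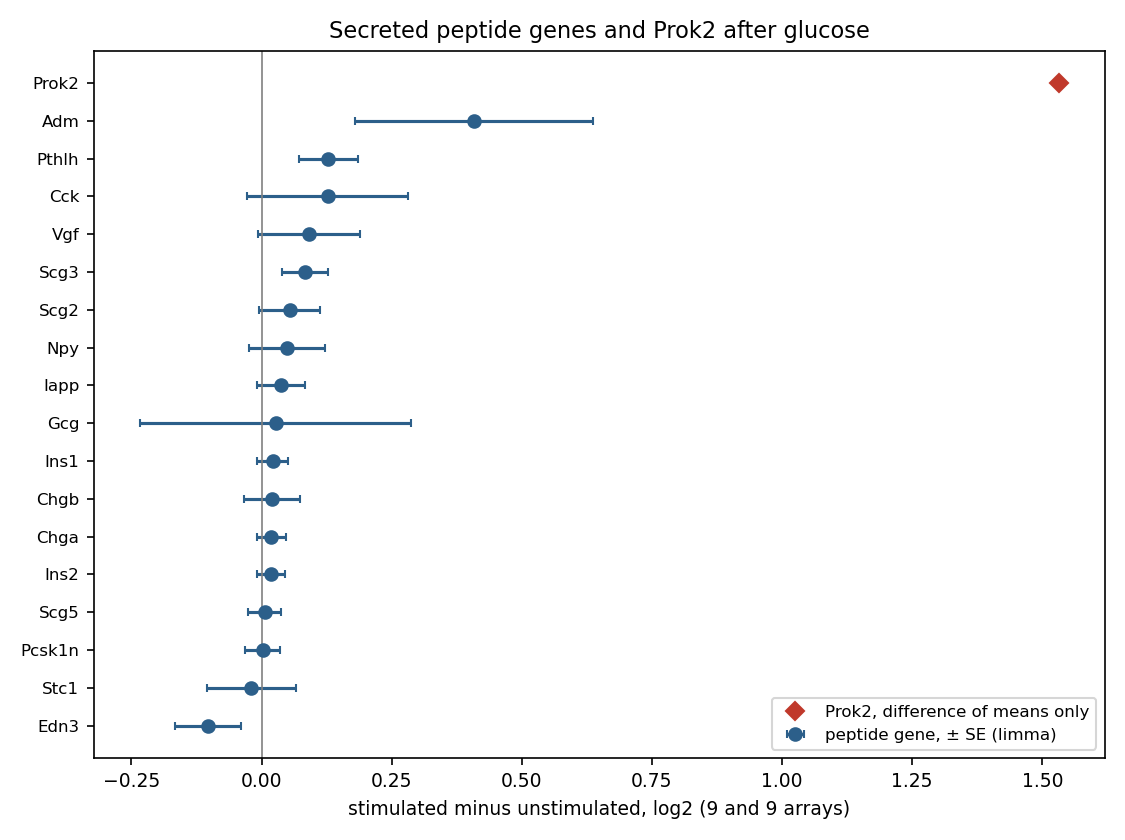
Stimulated minus unstimulated log2 difference (horizontal axis) of the 17 tested peptide genes, with SE from limma, and of Prok2, given as a difference of means with no error because it was chosen for this contrast. Prok2 stands at 1.53, and the peptide genes lie between Edn3 at -0.10 and Adm at 0.41.

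Tac1, the gene of substance P and a peptide gene below the filter, was singled out after its values were seen. Its log2 signal averaged 5.79 on stimulated and 4.64 on unstimulated arrays. In the fit with no filter, which called 334 of 13136 genes (2.54%), it rose by 1.16 (SE 0.19, limma adjusted p = 0.0102). It kept a limma adjusted p under 0.05 in each fit that left out 1 array, with rises of 1.05 to 1.27, and rose by 1.54 without the arrays numbered 3 (limma adjusted p = 2.0e-04). By number its stimulated minus unstimulated difference without vitamin D was 1.94, 1.07 and 0.64. On that pair numbered 3, Prok2 differed by -0.39. On the pairs numbered 3 after calcidiol and after calcitriol, Tac1 differed by 0.16 and 0.36, and Prok2 by 0.27 and 0.57.

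Of 9 myeloid markers, genes of the white blood cells known to make prokineticin 2, Cd68 was measured and lay below the filter. Its log2 signal was 5.57 to 6.39 on unstimulated and 6.08 to 6.79 on stimulated arrays, with means of 5.88 and 6.50. In the fit with no filter it was called as higher after glucose, by 0.61 (SE 0.13, limma adjusted p = 0.0279), and without the arrays numbered 3 by 0.79 (limma adjusted p = 0.00155). It was not called in 10 of the 18 fits that each left out 1 array, where the difference ran from 0.54 to 0.68. Its part in the Prok2 values was not tested. Among the 12 beta-cell markers tested, 1 passed, the potassium channel gene Kcnj11, which was lower by -0.23 in log2 signal after glucose (limma adjusted p = 0.0201). It did not pass without calcitriol 1, without calcitriol 2 or without glucose 2. Over all 9852 genes 1.97% passed as lower, so 1 of 12 is not read as a result. That share was 6.18% on the 12 arrays numbered 1 and 2. On the 12 arrays numbered 1 and 2, Kcnj11 was lower by -0.29 and Nkx6-1, a beta-cell transcription factor gene, by -0.30 (limma adjusted p = 0.00479 and 0.0127). With the array number as a block 2 were lower, Kcnj11 and Nkx6-1, where 651 of all 9852 genes passed as lower.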

How the data were processed

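Expression was measured in 18 samples on arrays. The authors deposited normalised signals on a log2 scale. Partek and RMA are listed in the submitters' processing notes, which give neither their roles nor their settings. The attached table (17017 probe sets, of which 14698 carried 1 gene symbol, 2306 none and 13 a symbol turned into a date) and the series matrix (29214) held identical values for the shared probe sets. Of 13136 symbols 11287 are current in RefSeq's GRCr8 table, and the file's names were kept. For each gene the probe set with the highest mean was used, and the lowest 25% of genes by mean signal were left out, leaving 9852.

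Groups came from the labels. One limma model of all 6 groups (limma 3.58.1, R 4.3.3, lmFit and eBayes) gave every contrast, adjusted over all genes by Benjamini-Hochberg, and an adjusted p under 0.05 was called. Python 3.11.15 with numpy 2.4.6 and pandas 2.3.3 made the tables and motif searches, and matplotlib 3.10.9 the plots. The code was tested on simulated data. Prok2, the gene lists and the contrasts were chosen with earlier results of these data known. Named genes were the prokineticin genes, in each list up to 4 members, taken by smallest adjusted p, the 8 most and 4 least like Prok2, the 5 most like it within groups, and Txnip and Nr4a1; others were named after their values were seen.

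Same-numbered arrays deviated together (correlation of deviations from group means above 0.1 in every pair) in 8 of the 9 comparisons of 2 groups, and in calcidiol against control the lowest was 0.0533. This check, not a label, is the source of the pairing. Alternatives were no filter and a stricter one, the series matrix, quantile normalisation, median centring, every probe set, an intensity trend with robust estimation, array weights, the compared groups alone, the array number as a block, and leaving out each array or all arrays numbered 3. The fits of Prokr2, Tac1 and Cd68 that combine no filter with a further alternative were chosen after seeing the data. One marker result is not reported here.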

Additional observations from a re-analysis of the deposited data

How the results depend on the processing

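Leaving out the arrays numbered 3 turned the sign of 5 vitamin D differences of Prok2. Calcitriol minus control became -0.080, calcidiol minus control 0.30 and calcitriol minus calcidiol -0.38. Calcidiol with glucose minus glucose became 0.024 and the calcidiol interaction -0.27. Array weights turned that interaction to -0.25. None of the 8 vitamin D differences of Prok2 passed under any alternative run, though the series matrix holds identical values and could not differ. Leaving out 1 array at a time gave -0.10 to 0.58 for calcitriol minus control, -0.39 to 0.28 for calcidiol minus control and -0.026 to 0.71 for calcitriol minus calcidiol. With glucose the ranges were -0.10 to 1.27, -0.90 to 0.89 and -0.13 to 1.27, and for the interactions -0.42 to 0.95 with calcitriol and -0.83 to 0.96 with calcidiol. The glucose difference of Prok2 ran from 0.86 to 2.24 without vitamin D, 0.94 to 2.33 after calcidiol, 1.55 to 2.23 after calcitriol and 1.36 to 1.84 averaged. For Prokr2 the ranges were 0.75 to 2.59 for calcitriol minus control and 1.06 to 2.63 with glucose, and -0.055 to 2.36 for calcidiol minus control and 0.14 to 2.54 with glucose. Without the arrays numbered 3, calcidiol minus control was -0.072.

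The replicate block cannot move a Prok2 difference, with or without the arrays numbered 3, because every group holds each array number used. It alters only the SE and p, and the SE for the 0.32 of calcitriol minus control was 0.63. The block changed no vitamin D call of Prok2 and raised the averaged glucose count from 332 to 941 genes. That count was 201 with the lowest 50% left out, 1171 with array weights, 979 without the arrays numbered 3, 1564 without them and with the block, and 30 to 806 with 1 array left out, the fewest without calcitriol 2 and the most without calcidiol with glucose 3. Glucose minus control called 0 genes over 18 arrays (limma), 1051 with array weights, 12 with the compared groups alone, 104 without the arrays numbered 3, 175 with the block too, and 0 to 1 with 1 array left out. For glucose after calcitriol the counts were 0, then 373 with array weights, 186, 447 and 0 to 2, and after calcidiol 0, then 133, 241 and 0 to 27. Without the arrays numbered 3 the vitamin D contrasts called 2 genes for calcitriol minus control and for calcitriol with glucose minus glucose, unchanged by the block. Calcitriol minus calcidiol called 1, or 2 with the block, and with glucose 2, or 3 with the block. The cause was not tested. The spread that the arrays numbered 3 add limits every Prok2 result over 18 arrays.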
